A study of Homo sapiens with 7 samples.

Results

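The BCL2 family genes are described here as 10 genes, BCL2, BCL2L1, MCL1, BCL2L11, BBC3, PMAIP1, BAX, BAK1, BID and BAD, out of 19974 protein-coding genes of the RefSeq table. They were chosen by name, and the accessible regions taken for each gene were those overlapping its body or the 50 kb on either side. These windows held 65 of the 62507 accessible regions obtained by merging the lists of all libraries. Chromatin accessibility was measured by ATAC-seq, in which a transposase inserts adapters into open DNA, in LUHMES cells, an established human mesencephalic line that carries a tetracycline-repressed v-myc gene and leaves the cell cycle when tetracycline is added. All cells were wild type, were differentiated for 6 days with tetracycline, dibutyryl-cAMP and GDNF, and are labelled as dopaminergic neurons from midbrain. Of the libraries, 4, numbered 6, 7, 8 and 9, came from cells given antimycin A at 25 µM and oligomycin at 10 µM for 8 h (treated), and 3, numbered 6, 7 and 8, came from cells given DMSO (vehicle). The labels describe the samples of each group as independent batches of differentiated cells of this one line, so the p-values below refer to the spread between these batches. The comparison addresses where chromatin is accessible in stressed and in control neurons.

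BCL2 family proteins control whether the outer mitochondrial membrane is opened during apoptosis. BAX and BAK1 form the pores, BCL2, BCL2L1 and MCL1 hold them in check, and BH3-only proteins, here BCL2L11 (BIM), BBC3 (PUMA), PMAIP1 (NOXA), BID and BAD, either neutralise the protective members or activate the pore formers. Several BH3-only genes are known as transcriptional targets of stress pathways: BBC3 and PMAIP1 of p53 and, in other settings, of ATF4 and CHOP, and BCL2L11 of FOXO factors in neurons deprived of growth factor. Antimycin A blocks respiratory complex III and oligomycin blocks the ATP synthase of the same mitochondria on whose surface these proteins act.

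Stretches of 250 bases upstream of the annotated start are shown for 4 members, chosen for what was measured at the starts: PMAIP1, whose region ranked ahead in every treated library; BCL2L11, a FOXO target; and BAX and BAK1, the pore formers, whose start regions were the weakest of those seen in most libraries. The sequences are RefSeq reference sequence on GRCh38.p14, written 5′ to 3′ along the gene, and capitals mark matches on either strand to any of 10 searched motifs.
PMAIP1, chr18:59899746-59899995, plus strand: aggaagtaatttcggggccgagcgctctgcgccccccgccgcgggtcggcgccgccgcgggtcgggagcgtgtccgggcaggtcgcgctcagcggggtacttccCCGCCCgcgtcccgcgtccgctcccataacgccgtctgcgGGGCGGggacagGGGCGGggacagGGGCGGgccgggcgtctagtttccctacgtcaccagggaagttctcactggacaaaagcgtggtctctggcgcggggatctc
BCL2L11, chr2:111120664-111120913, plus strand: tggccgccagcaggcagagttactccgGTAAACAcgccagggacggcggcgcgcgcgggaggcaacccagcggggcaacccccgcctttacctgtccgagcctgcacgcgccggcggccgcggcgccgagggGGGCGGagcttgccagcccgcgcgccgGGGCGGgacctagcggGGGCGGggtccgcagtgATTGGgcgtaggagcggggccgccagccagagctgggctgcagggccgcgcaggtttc
BAX, chr19:48954625-48954874, plus strand: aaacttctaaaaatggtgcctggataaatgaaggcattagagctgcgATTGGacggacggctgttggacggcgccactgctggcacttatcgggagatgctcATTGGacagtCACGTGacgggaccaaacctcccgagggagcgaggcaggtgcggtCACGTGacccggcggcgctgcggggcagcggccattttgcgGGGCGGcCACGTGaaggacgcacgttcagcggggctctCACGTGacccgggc
BAK1, chr6:33580277-33580526, minus strand: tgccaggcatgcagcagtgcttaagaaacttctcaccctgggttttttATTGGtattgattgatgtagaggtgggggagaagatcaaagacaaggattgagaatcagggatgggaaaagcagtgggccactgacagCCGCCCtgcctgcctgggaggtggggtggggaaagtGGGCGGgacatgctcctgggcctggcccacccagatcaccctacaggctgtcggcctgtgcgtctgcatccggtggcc
The PMAIP1 stretch, with a GC content of 72.8%, carried 4 GC boxes (GGGCGG), and the BCL2L11 stretch, with 76.8%, carried 3 GC boxes, a CCAAT box and a FOXO match (TGTTTAC, here on the opposite strand) at -223 to -217 from the start. The BAX stretch, with 62.8%, held 4 E-boxes (CACGTG), a GC box and a pair of CCAAT boxes, and the BAK1 stretch, with 58.0%, held a pair of GC boxes and a CCAAT box. None of the marked matches overlap each other. The median GC content of all 22156 listed promoters was 62.0%.

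The table of promoters lists 9 of the 10 members, and MCL1 is named only. A gene was counted once if any of its listed windows, from 250 bases upstream to 50 bases downstream of a start, held a match. A GC box was found in 7 of the 9 listed members and in 64.3% of the 15813 genes listed. A CCAAT box was found in 5 members and in 42.1% of genes, and an E-box in 3 members (BAX, BBC3 and BID) and in 10.9% of genes. A FOXO match was found in BCL2L11 alone among the members and in 3.76% of genes, an AP-1 match (TGANTCA) in BBC3 alone, at -113 to -107, and in 8.04% of genes, and an ETS match (CCGGAAG) in BCL2L1 alone and in 16.5% of genes. The CRE (TGACGTCA, 3.00% of genes), the C/EBP-ATF element (TGATGCAA, 0.904%), the NRF1 element (9.69%) and the E2F element (GCGGGAAA, 2.66%) had no match in these windows of the members. Both strands were searched, and a match is a description of the letters and not evidence of binding.

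The lists of accessible regions differed in length more than the groups did. The number of regions was 188516, 248900, 55533 and 53063 in treated 6, 7, 8 and 9, against 53398, 32828 and 159902 in vehicle 6, 7 and 8, so treated 6, treated 7 and vehicle 8 had long lists and the others short ones. Comparisons therefore used the 32828 regions of largest fold enrichment in each library, and a region was described by its rank within its own library, with 1 for the strongest and the mean rank for ties. Ties were coarse where lists were short: vehicle 7 had 86 distinct fold values among its regions. A region beyond rank 32828 is weaker in its own library and is not thereby closed. In bulk libraries, fewer cells with an open region and less opening per cell cannot be told apart. Regions at gene ends were wider in some libraries, with median widths of 1374, 1881, 773 and 1128 bp in treated 6, 7, 8 and 9 and of 797, 538 and 1342 bp in vehicle 6, 7 and 8. Of 10 neuron markers, 9 in each treated library and 7 to 9 in the vehicle libraries had a region at a gene end, while of 11 dopaminergic markers 5 and 4 to 6 did, and TH, DDC, SLC18A2 and LMX1B had none in any library at this list length. Of 10 markers of mesenchymal and endothelial cells, 4 in each treated library and 1 to 2 in the vehicle libraries had one, and of 10 glial markers 3 to 6 and 2 to 5 did. Whether this has a part in the results on BCL2 family genes was not tested.

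Most BCL2 family genes had an accessible region at a gene end in treated and in vehicle cells alike. A region within 1000 bp of either end of the gene was present for 9 members in each of the 4 treated libraries, and for 9, 8 and 9 members in vehicle 6, 7 and 8, a difference in means of 0.333 genes. The same 8 members, all but BAX and BBC3, had one in all 7 libraries, and 66.1% of the 14055 genes with such a region in any library did so. BAX had one in 3 treated and 2 vehicle libraries, and BBC3 in 1 treated and 0 vehicle libraries. These 2 of 10 members had a larger share of treated libraries, against a background of 27.5% of genes, and none had a larger share of vehicle libraries, against 6.48%. No gene of the 14055 passed Fisher's exact test with Benjamini-Hochberg adjustment (0%), and 4 libraries against 3 cannot give a p below 0.0286. That value was reached by 115 genes with a region in all 4 treated and no vehicle library (0.818%) and 3 in the reverse (0.0213%), and by no member.

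**Figure D1:**
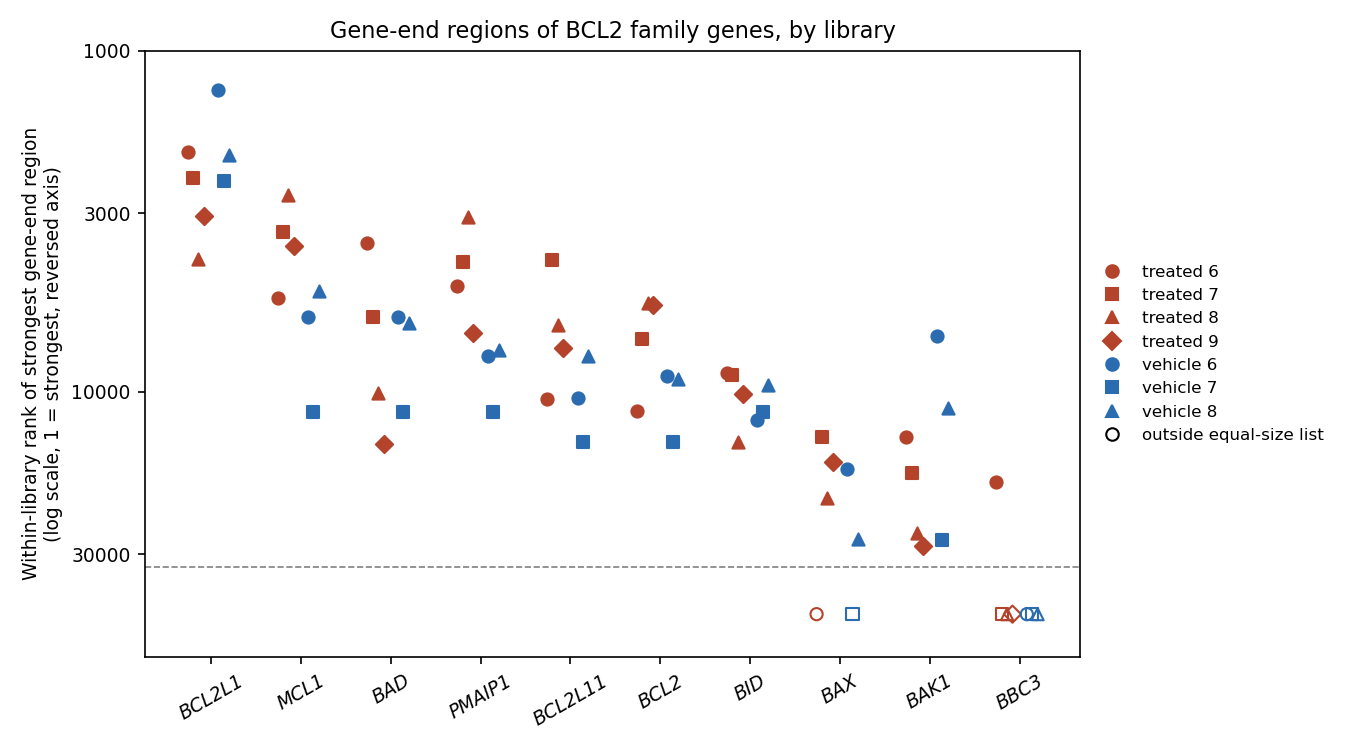
Rank of the strongest gene-end region of each BCL2 family gene within each library, on a reversed log scale, for treated libraries 6 to 9 (red) and vehicle libraries 6 to 8 (blue); genes run by their median rank and open symbols lie outside the 32828 strongest regions (dashed line). BCL2L1 lies at the top, between 1307 and 4096.5, the 4 treated points of PMAIP1 lie above its 3 vehicle points, and BBC3 has 1 point inside the list.

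Ordered by median rank, the gene-end regions ran from BCL2L1 at the strong end through MCL1, BAD, PMAIP1, BCL2L11, BCL2, BID and BAX to BAK1, and BBC3 followed with 1 region. Each neighbouring pair of genes in this order down to BAK1 had overlapping ranges over the libraries in which they were seen. The ranks were compared by limma on the log2 scale over the 9284 genes with a gene-end region in all 7 libraries, where a negative difference means a stronger rank in treated cells. Over all these genes the median difference was -0.25, and over the 8 members tested it was -0.34, with 6 negative and 2 positive. Of all genes tested, 67.0% were negative and 33.0% positive. No member passed the adjusted threshold of 0.05, at which 3 genes (0.0323%) ranked stronger and 0 genes (0%) weaker in treated cells. At an unadjusted p below 0.05 there were 969 genes (10.4%), and 759 of them (8.18%) ranked stronger in treated cells. Among these were 2 members, PMAIP1 and MCL1.

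Among the protective members, MCL1, a short-lived protein that must be made continuously to protect the cell, had the larger difference. The region at its upper end (gene at chr1:150574558-150579610) ranked 5311, 3399.5, 2652 and 3735 in treated 6, 7, 8 and 9, and 6037.5, 11514 and 5057.5 in vehicle 6, 7 and 8. The groups overlapped through treated 6, which lay behind vehicle 8. The log2 rank differed by -0.95 ± 0.43 (SE, limma, n = 4 and 3; adjusted p = 0.454; exact permutation p = 0.0857, two-sided). Among the short-list libraries the difference was -1.41 and among the long-list ones -0.25, and without vehicle 7 it was -0.60.

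The MCL1 region was also the one member region whose width, relative to the median width at gene ends in the same library, did not overlap between the groups. It spanned 2157, 2120, 843 and 1340 bp in treated 6, 7, 8 and 9, and 738, 344 and 1385 bp in vehicle 6, 7 and 8. On the log2 scale the relative width was 0.65, 0.17, 0.13 and 0.25 in the treated libraries, and -0.11, -0.65 and 0.05 in the vehicle libraries. All 4 treated values lay above the vehicle values, as was so for 2.60% of the 9284 genes. The difference of 0.54 ± 0.27 (SE) had an exact permutation p of 0.0286, the smallest possible, and did not pass limma over all genes (adjusted p = 0.762). Without vehicle 7 it was 0.33.

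BCL2, the founding member, spans chr18:63123346-63320090. Its start region ranked 11390, 7003, 5491.5 and 5565.5 in treated 6, 7, 8 and 9, and 9013, 14023.5 and 9186.5 in vehicle 6, 7 and 8. Treated 7, 8 and 9 were ahead of all vehicle libraries, and treated 6 was behind vehicle 6 and 8. The difference of -0.58 ± 0.42 (SE, limma adjusted p = 0.614; exact permutation p = 0.171) did not pass either test. It was -1.02 in the short-list and -0.04 in the long-list libraries, and -0.37 without vehicle 7.

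BCL2L1, which encodes BCL-XL, a protective member in neurons, had the strongest region of the set. Its start region (gene at chr20:31664452-31723963) ranked 1977, 2367.5, 4096.5 and 3048 in treated 6, 7, 8 and 9, and 1307, 2407.5 and 2026 in vehicle 6, 7 and 8. The treated libraries with short lists were the weakest, and the groups overlapped. The difference ran the other way from MCL1 and BCL2, at 0.58 ± 0.42 (SE, limma adjusted p = 0.619; exact permutation p = 0.229), and was 0.99 in the short-list and 0.09 in the long-list libraries and 0.32 without vehicle 6.

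Among the BH3-only genes, PMAIP1 was the member whose treated libraries all ranked ahead of the vehicle ones by the strongest gene-end region. Its product, NOXA, binds MCL1 and promotes its degradation. The start region (gene at chr18:59899996-59904305, sequence above) ranked 4910.5, 4177, 3075.5 and 6738 in treated 6, 7, 8 and 9, and 7839, 11514 and 7574 in vehicle 6, 7 and 8. The groups did not overlap, also when ties were taken at their extremes: the last rank tied with the weakest treated region was 7089, and the first rank of any tie that held a vehicle region was 7313, in vehicle 6. Such an order was seen for 9.2% of the 9284 genes, and the reverse order, which no member showed, for 2.21%. A difference of -0.9 or lower was seen for 9.33% of genes. The difference was -0.96 ± 0.41 (SE, limma p = 0.0333, adjusted p = 0.440; exact permutation p = 0.0571). It was -1.06 in the short-list libraries, -0.74 in the long-list ones, and between -1.15 and -0.76 when any one library was left out. The authors' fold enrichments of this region were 27.7, 21.2, 12.1 and 9.61 in treated 6, 7, 8 and 9 and 10.1, 6.83 and 22.2 in vehicle 6, 7 and 8, and are not comparable between libraries.

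BCL2L11 encodes BIM, which binds all protective members. Its start region (gene at chr2:111120914-111168445) ranked 10489.5, 4106, 6386.5 and 7476 in treated 6, 7, 8 and 9, and 10426.5, 14023.5 and 7868.5 in vehicle 6, 7 and 8. Treated 7, 8 and 9 were ahead of the vehicle libraries and treated 6 was not. In treated 7, treated 9 and vehicle 8 the region was wide, with its summit 1977, 1792 and 1738 bp inside the gene. As a merged region it ranked 7122, 4106, 6386.5 and 7476 in treated 6, 7, 8 and 9. In vehicle 6, 7 and 8 it ranked 10426.5, 7907 and 7868.5. The places of treated 6 and vehicle 7 thus depend on how regions were split. How often merged regions have such an order was not computed. The difference for the gene-end region was -0.64 ± 0.43 (SE, limma adjusted p = 0.593; exact permutation p = 0.171), and -0.40 without treated 7. It was -0.81 in the short-list and -0.26 in the long-list libraries. Its width varied most of the set, with 1444, 7010, 669 and 3115 bp in treated 6, 7, 8 and 9 and 539, 374 and 3228 bp in vehicle 6, 7 and 8, and the merged region also reached an end of the neighbouring gene ACOXL. The difference in relative width, 0.75 ± 0.49 (SE), did not pass the test (limma adjusted p = 0.784) and ran from 0.38 without treated 7 to 1.35 without vehicle 8.

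BID, which caspase-8 cleaves into its active form, and BAD, which is held inactive by phosphorylation downstream of growth factors, showed no separation. The BID start region (gene at chr22:17734138-17774665) ranked 8833.5, 8921, 14051.5 and 10159 in treated 6, 7, 8 and 9, and 12101.5, 11514 and 9540 in vehicle 6, 7 and 8, with overlap and a difference of -0.09 ± 0.39 (SE, limma adjusted p = 0.934). BID has 5 listed starts. For 3 of them, the upstream 250 bases were reached by regions in 4 treated libraries and 1 vehicle library, whereas the other 2 were reached in all 7. The stretches of these 3 starts overlap one another and form a single site at the edge of the BID start region. The strongest BID region ended short of this site in vehicle 6 and 7, at 17774167 and 17774454, and also in treated 8, at 17774170. The merged start region was present in all 7 libraries. How often starts have such a pattern was not computed. The strongest BID regions spanned 1960, 3115, 1011 and 1250 bp in treated 6, 7, 8 and 9 and 439, 667 and 1729 bp in vehicle 6, 7 and 8. Relative to the library medians the BID width differed by 0.51 ± 0.31 (SE, limma adjusted p = 0.784; exact permutation p = 0.229), and by 0.11 without vehicle 6.

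For BAD (chr11:64269828-64284704) the region at the 3′ end, which is shared with ends of GPR137 and PLCB3, was stronger than that at the start in treated 6, 7 and 8 and in vehicle 8, was the only one in vehicle 6, and tied with it in treated 9 and vehicle 7. The strongest region ranked 3670, 6033.5, 10105.5 and 14277 in treated 6, 7, 8 and 9, and 6037.5, 11514 and 6276.5 in vehicle 6, 7 and 8. The groups overlapped fully, with a difference of -0.01 ± 0.48 (SE, limma adjusted p = 0.994). The region at the BAD start itself was present in all 4 treated libraries, at ranks 17723, 14475.5, 20596 and 14277, and in vehicle 7 and 8, at 11514 and 17998, but not in vehicle 6.

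Of the pore formers, BAX (chr19:48954875-48961798) had no gene-end region among the strongest 32828 in treated 6 and none in the deposited list of vehicle 7. In treated 6 a region was listed at rank 42413. In the other libraries the region ranked 13634, 20596 and 16116 in treated 7, 8 and 9, and 16844.5 and 26995 in vehicle 6 and 8. The ranges overlapped, and with a region missing in a library of each group BAX did not enter the test of ranks.

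BAK1 (chr6:33572552-33580276) varied most of the set among the vehicle libraries. Its start region ranked 13631.5, 17332.5, 26013 and 28420 in treated 6, 7, 8 and 9, and 6868.5, 27312.5 and 11155.5 in vehicle 6, 7 and 8. The groups overlapped through vehicle 7. The difference of 0.68 ± 0.48 (SE, limma adjusted p = 0.612; exact permutation p = 0.286) was in the direction of a weaker rank in treated cells, and was 1.22 without vehicle 7 and 0.23 without vehicle 6. A second BAK1 region, at its 3′ end (chr6:33570870-33571897), was present in all 4 treated libraries, at ranks 29667.5, 18984, 20596 and 14277, and in vehicle 8 alone of the vehicle libraries, at 19802.5. Its Fisher exact p was 0.143, and 39.6% of all regions were in a larger share of treated libraries. In the deposited lists it was present in 4 treated and 2 vehicle libraries.

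Apart from MCL1, no member's relative width separated the groups. Over the 8 members tested, the differences in log2 relative width ran from -0.17 for BAK1 to 0.75 for BCL2L11 with a median of 0.14, against a median of -0.06 over all 9284 genes. No member passed the test, at which 1 gene (0.0108%) was wider and 0 genes (0%) narrower in treated cells, and 633 genes (6.82%) had an unadjusted p below 0.05.

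**Figure D2:**
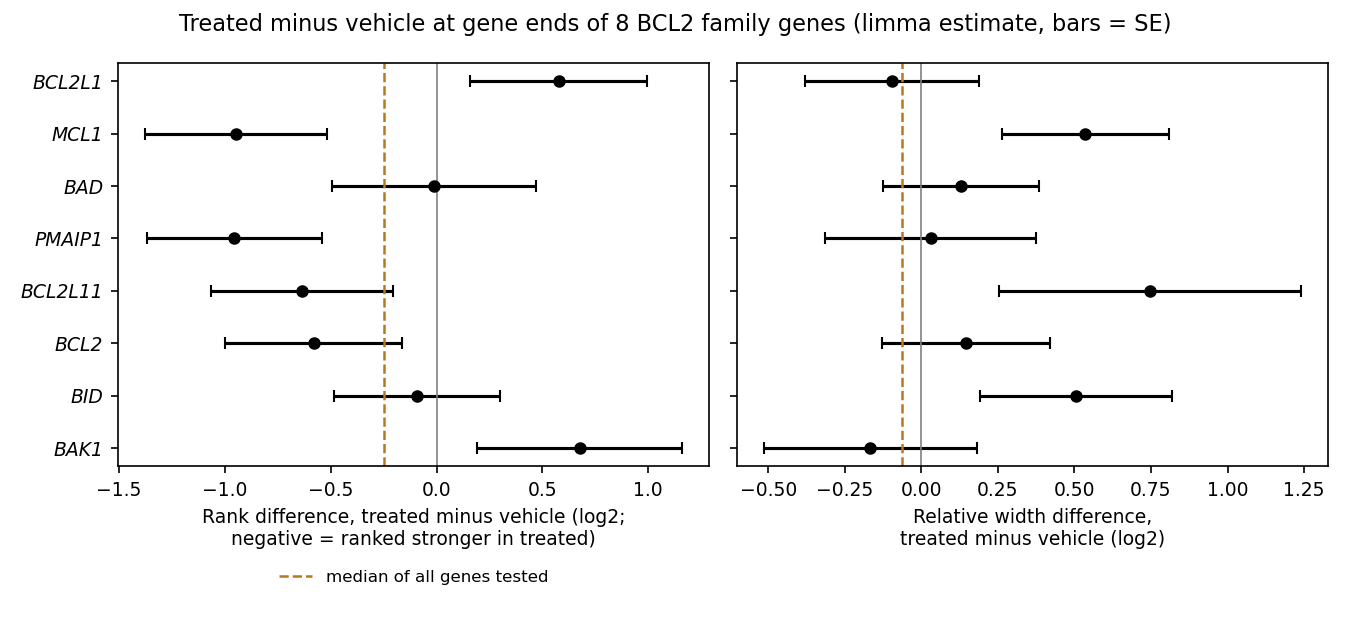
Difference between treated and vehicle libraries in log2 rank (left; negative is stronger in treated) and in log2 relative width (right) of the gene-end region, for the 8 BCL2 family genes with such a region in all 7 libraries; points are limma estimates, bars 1 SE, and the dashed line is the median of the 9284 genes tested. PMAIP1 and MCL1 lie lowest in rank, at -0.96 and -0.95, and BAK1 highest, at 0.68.

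BBC3, which encodes PUMA, was the one member with almost no region at its annotated ends (chr19:47220824-47232860) but with several regions inside the gene. The nearest to the start lay with its midpoint, over the bins described next, 1610 bp inside the gene. It ended 973, 1002, 1209 and 1010 bp inside the start in treated 6, 7, 8 and 9, so that the 1000-bp window around the annotated ends took it in for treated 6 alone. With the start of the promoter table used as well, the window took it in for treated 6, 7 and 9, at ranks 18363, 14186.5 and 9157. No vehicle equal-size list had a region there, and of the deposited vehicle lists that of vehicle 8 alone did. When the window was widened to 2500 bp, all 10 members had a gene-end region in each treated library, and the difference in members was 1.33. This site was singled out after its values were seen.

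At the BBC3 site, 3 adjacent bins of 500 bp (chr19:47230501-47232000) were covered in all 4 treated and no vehicle equal-size list. The covering regions ranked 18363, 14186.5, 10105.5 and 9157 in treated 6, 7, 8 and 9. In treated 7 the region was 6372 bp wide and its summit lay 5055 bp inside the start, outside these bins. Vehicle 6 and 7 had no region there, and vehicle 8 had one at rank 34388, just outside the 32828 kept. The presence of this site is thus 4 treated and 0 vehicle libraries in the equal-size lists and 4 and 1 in the deposited ones. Further inside the gene, all 7 libraries had regions, including one with a summit 6526 bp inside the start in treated 6 and in vehicle 8, where it ranked 20553.5 and 18872. No test across bins was made, and merged into regions the site was joined to those further inside by the wide region of treated 7, so that the merged region counted as present in all 7 libraries.

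**Figure D3:**
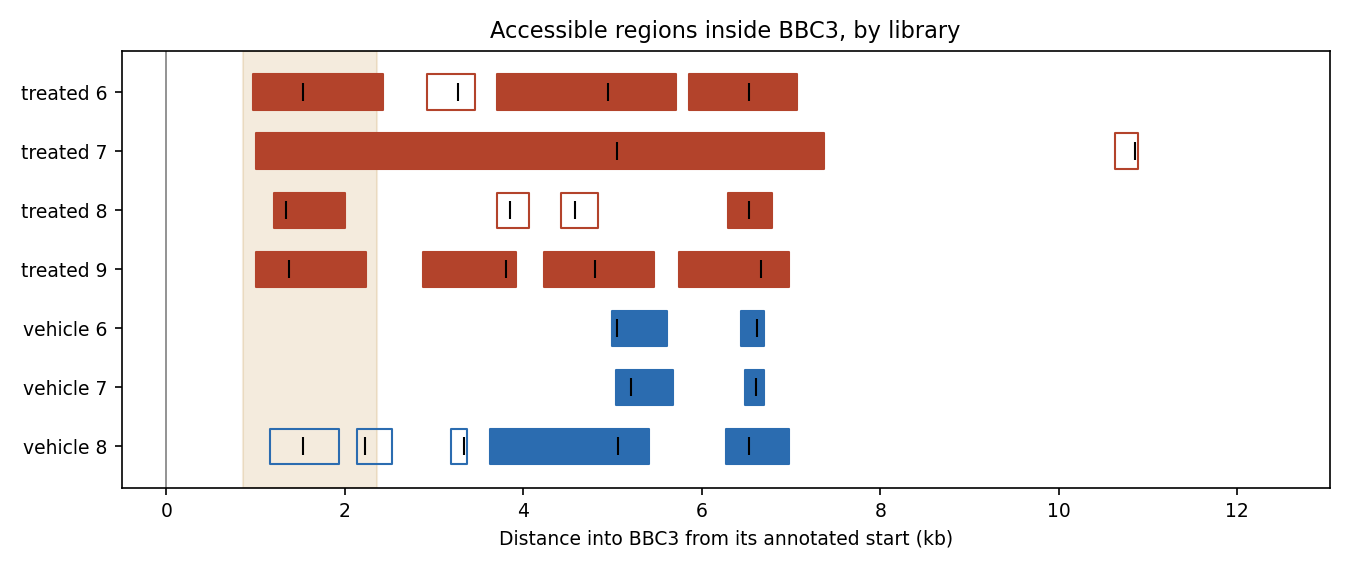
Accessible regions inside BBC3 in each library, by distance from the annotated start in kb, with treated libraries in red above vehicle libraries in blue; filled bars are among the 32828 strongest of the library, open bars are not, and ticks mark summits. In the shaded 1.5 kb the 4 treated libraries have a filled bar, vehicle 8 has open ones, and vehicle 6 and 7 have none.

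The same count of bins was made around all members, after the BBC3 site had been noticed. Of 270 bins covered in any library, 7 (2.59%) were covered in all treated and no vehicle equal-size lists and 0 in the reverse. Among the 199623 bins covered in any library over the whole genome, at gene ends or not, these shares were 0.759% and 0.173%. The member share includes the 3 BBC3 bins that prompted the count, so it cannot be set against the genome share as a test. The 7 bins made up 4 stretches: the 3 bins of BBC3, 2 bins inside BAD and GPR137, and 1 bin each beside FTL (chr19:48964501-48965000) and inside GYS1 (chr19:48992501-48993000) in the window of BAX. At the GYS1 bin the stretch belonged to a region at a gene end of GYS1 and RUVBL2 that was present in all 7 libraries, so it reflects the edge of that region and not its presence. At the FTL bin, the covering region of treated 9 had its summit at 48963665. In treated 6, 7 and 8 the summits lay at 48965258, 48965235 and 48965237.

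By whole regions, the windows of BCL2 family genes held 1 that separated the equal-size lists of the groups. Of the 65 regions, 13 lay at an end of the member itself, 24 at an end of another gene and 28 at neither. In all 7 libraries 24 regions were present, against a background of 22.9%. A larger share of treated libraries was seen for 30 regions (background 39.6%) and a larger share of vehicle libraries for 11 (background 37.4%). These backgrounds cover all 62507 regions, at gene ends or not. Of genes with a gene-end region, 27.5% had it in a larger share of treated and 6.48% in a larger share of vehicle libraries. Present in all 4 treated and no vehicle library was 1 region (background 0.781%), and the reverse was true of 0 regions (background 0.37%). No region of the 62507 passed Fisher's exact test after adjustment (0%), and 719 (1.15%) had an unadjusted p below 0.05, which only those patterns can reach.

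The one region of this kind lay inside BAD and GPR137, at chr11:64271382-64272199. It was within 1000 bp of an end of GPR137 and of no end of BAD. It ranked 27136, 16312.5, 5491.5 and 28420 in treated 6, 7, 8 and 9. Vehicle 6 and 7 had none in their deposited lists and vehicle 8 had one at rank 34388, outside its equal-size list. The Fisher exact p was 0.0286, the smallest possible, with an adjusted p of 1. It was thus present in 4 treated and 1 vehicle library of the deposited lists.

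**Figure D4:**
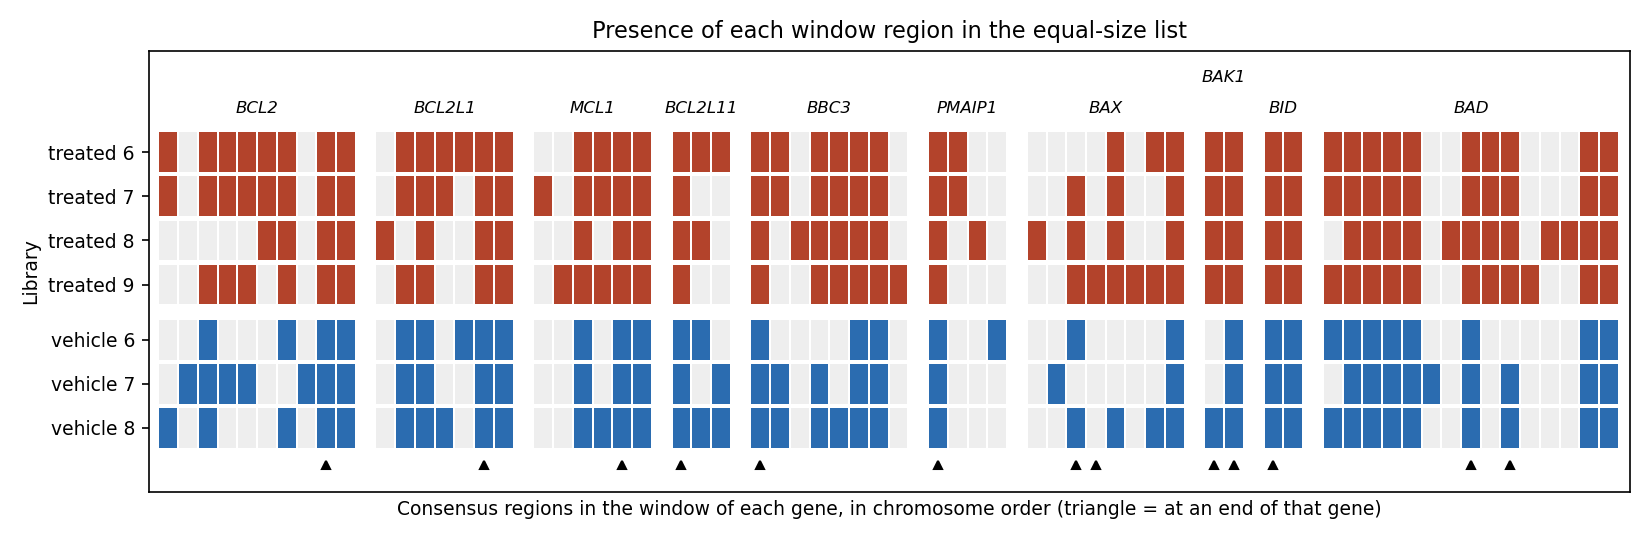
Presence of each of the 65 merged regions in the windows of the BCL2 family genes, with 1 column per region in chromosome order and 1 row per library, treated (red) above vehicle (blue); triangles mark regions at an end of the gene itself. Of the columns, 24 are filled in all 7 libraries and 1, in the BAD window, is filled in the 4 treated rows alone.

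The strongest region common to all libraries in a window was often not that of the member. By its weakest rank, it was at an end of ENSA in the MCL1 window (2188), of KDSR in the BCL2 window (5026.5), of FKBP2 in the BAD window (12101.5), of GYS1 and RUVBL2 in the BAX window (16844.5) and of CCDC9 in the BBC3 window (18872). In the windows of BCL2L1 (4096.5), BCL2L11 (10426.5), PMAIP1 (11514), BID (14051.5) and BAK1 (28420) it was the member's own start region, which for BCL2L11 also reaches ACOXL.

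Several other regions, chosen after their values were seen, were in a larger share of the treated equal-size lists without being in all of them and in no vehicle list. Of all 62507 regions, 39.6% were in a larger share of treated libraries. Each region below had a Fisher exact p of 0.143 in the equal-size lists. Upstream of BBC3, a region at chr19:47243920-47245123 ranked 7313.5, 11151.5, 10105.5 and 11329.5 in treated 6, 7, 8 and 9 and 17998 in vehicle 8, and was in no other vehicle list. In the BAX window, a region at chr19:48963426-48966415, which overlaps FTL at a gene end, was present in 4 treated libraries. It ranked 11856.5 to 17723 there and 32046 in vehicle 8. Inside BCL2, a region at chr18:63192185-63193410 was in 3 treated and 0 vehicle equal-size lists, at ranks 19790 to 31055, and in 4 treated and 0 vehicle deposited lists. The deposited lists differ in length, and the share of all regions that separate them was not computed. In each case vehicle 6 and 7, which have short lists, lacked the region, and in the last case vehicle 8, with a long list, lacked it too. Treated 8 and 9 also have short lists. They held the region upstream of BBC3, at ranks 10105.5 and 11329.5, and the one at FTL, at 11856.5 and 16116. Whether list length has a part in these patterns was not tested.

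The number of regions in a window away from the gene's own ends did not separate the groups for any member. BCL2 had 7, 7, 3 and 5 such regions in treated 6, 7, 8 and 9 and 5, 6 and 4 in vehicle 6, 7 and 8. BBC3 had 7, 6, 7 and 9 in the treated and 5, 6 and 7 in the vehicle libraries. BAX, with 4, 2, 4 and 5 in the treated and 1, 2 and 3 in the vehicle libraries, had the largest positive difference among the 8 members tested, 0.68 ± 0.33 on the log2(number + 1) scale (SE, limma adjusted p = 0.553; exact permutation p = 0.171 on the numbers), and 0.41 without vehicle 6.

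BCL2L11 had the largest negative difference, with 3, 0, 2 and 0 regions in treated 6, 7, 8 and 9 against 2, 3 and 2 in vehicle 6, 7 and 8, or -0.83 ± 0.59 (SE, limma adjusted p = 0.665), and -0.53 without treated 7 or treated 9. In treated 7 and 9 the start region was 7010 and 3115 bp wide. These wide regions overlapped a site that in treated 6 was a separate region, ranked 7122, and was counted there. The BCL2L11 numbers thus depend in part on how regions were split. Treated 7 and 9 also lacked the regions further inside the gene, at chr2:111143243-111143824 and chr2:111165151-111165560. BAD had 8, 8, 11 and 9 in the treated and 7, 9 and 7 in the vehicle libraries, most of them at ends of other genes. BCL2L1 had 3 to 5 in treated and 3 to 4 in vehicle libraries, MCL1 2 to 4 and 2 to 3, and BID 1 to 3 and 1 to 2. PMAIP1 had 0 to 1 in both groups, and BAK1 0 to 1 in treated and 0 in vehicle libraries, too few to be tested. No member was called, against 45 genes (0.296%) with more and 24 (0.158%) with fewer regions in treated cells among 15226 tested. The median difference was 0.14 over the members and 0.06 over all genes.

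Genes that act with the BCL2 family were read from 3 further lists. Of 16 other family members, 10 in each treated library and 8 to 10 in the vehicle libraries had a gene-end region, and 6 (BCL2A1, BCL2L10, BOK, BIK, BCL2L14 and BCL2L15) had none in any library. Of 20 genes of the apoptosome, the caspases and their inhibitors, 16 to 17 had one in treated and in vehicle libraries alike, and CASP6, CASP8 and BIRC5 had none. Of 24 regulators of the family, 22 in each treated and 21 to 22 in the vehicle libraries had one, and TP73 and ATF3 had none. No gene of these lists passed the test of ranks, where the median differences were -0.17 over 8 other family members, -0.49 over 15 genes of the apoptosome list and -0.33 over 21 regulators.

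Of these lists 1 gene passed a test over all genes, BCL2L15, a family member of little known function, in the number of regions away from its ends. It had 2 in each treated and 3 in each vehicle library, a difference of -0.42 on the log2(number + 1) scale (limma adjusted p = 0.0017). Neither group had any spread, as for 54 of the 69 genes called, so the p rests on the spread of other genes and on a difference of 1 region. Among the regulators, TRIB3, a pseudokinase induced by ATF4 and CHOP, had the lowest unadjusted p and is named after its values were seen. It ranked 3984, 7585, 6386.5 and 3735 in treated 6, 7, 8 and 9 and 30213, 11514 and 30360 in vehicle 6, 7 and 8. The groups did not overlap, and the difference of -2.08 ± 0.46 (SE) did not pass the adjusted threshold (limma adjusted p = 0.200). The same order without overlap was seen for MDM2, the p53 ubiquitin ligase, at -0.62 ± 0.40 (SE, limma adjusted p = 0.577).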

How the data were processed

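Per the labels' protocols, nuclei of treated and vehicle LUHMES cells were tagged with Tn5 and the DNA was amplified. The submitters' processing notes name FastQC, Bowtie2 and Picard and the genome build hg38, with no version. Peaks were called by MACS2 for each library separately, per the file headers. The sources used here give no caller settings or Tn5 offset, and settings alter widths and numbers. The deposited lists give each region's score, its fold enrichment as a ratio, and −log10 p and −log10 q, all computed by the authors' caller. The fold ordered regions within a library and −log10 p served as an alternative order; read depth is not given, so no counting interval was computed.

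Regions on chromosomes 1 to 22 and X were kept (29 to 54 dropped per library), and lists were shortened to 32828 regions. Gene bounds came from RefSeq GRCh38.p14, and strands and starts from its promoter table. Merged regions counted as present in a library from an overlap of 1 bp. Ranks, widths and numbers were tested with limma 3.58.1 (R 4.3.3) over all genes with Benjamini-Hochberg adjustment, presence with Fisher's exact test, and single values by exact permutation over 35 assignments, all two-sided. The number of regions was tested where it averaged at least 1. Python 3.11.15, numpy 2.4.6, pandas 2.3.3, scipy 1.17.1 and matplotlib 3.10.9 were used, and the overlap and test steps were tested on simulated data. All members were named; other genes and regions were named when past a threshold or present in every library of a treatment and no library of the opposite one, and by the best weakest rank per window. Members, lists and motifs were chosen with earlier results of these data known. Alternatives changed the order, list length, window, flank, scale, covariate, block and libraries.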

Additional observations from a re-analysis of the deposited data

Results flagged for a closer look

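Of 26 sets of 4 treated values of the members, 2 held a library far from the other 3, where chance gives about 1 in 20 for values on a continuous scale. PMAIP1 had 0 regions away from its ends in treated 9 and 1 in each of treated 6, 7 and 8. BID had 3 such regions in treated 9 and 1 in each of treated 6, 7 and 8. Both gaps are between numbers of at most 3 regions. With the other 3 libraries tied, the gap is the whole range, so the rate of 1 in 20 does not apply to these sets.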

How the results depend on the processing

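No BCL2 family gene was called in rank, width or number of distal regions in any fit. Ordering by −log10 p gave the same calls, and the same member estimates in rank and width, so it was no separate check. The call counts over all genes were unstable, and the cause was not tested. The 3 genes of stronger rank became 0 with lists of 16414 regions, windows of 2500 bp, summits within 1000 bp, the replicate block, list length as a covariate, missing ranks set to the list length, normal scores or starts only, 1 in short-list libraries, and 0 to 2 with 1 library left out. The 1 wider gene became 0 with half-length or deposited lists, short lists, the covariate or width in bp, 2 at 2500 bp, 9 under the block, and 0 to 112 with 1 library left out (112 without vehicle 8). The 45 genes with more and 24 with fewer distal regions became 0 and 0 in deposited lists and under the block, 366 and 235 in short-list libraries, 9 and 8 for the body alone, 8 and 11 at 100 kb, 12 and 7 without ends of other genes, and 54 to 205 and 28 to 120 with 1 library left out.

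The difference in members with a gene-end region, 0.333, became 1.33 at 2500 bp, -0.083 by summits and 0 to 0.5 with 1 library left out. Regions in all treated and no vehicle libraries numbered 5 in short-list libraries, 7 as bins (added after the data were seen) and 1 to 4 with 1 library left out (2 without treated 7 or treated 9, 4 without vehicle 8); the reverse stayed at 0.

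Directions of uncalled members turned as follows. In rank, BID became 0.017 and BAD 0.53 in short-list libraries, BID 0.035 and BAD 0.35 with the covariate, BAD 0.023 by normal scores, and BAD -0.32 to 0.33 with 1 library left out. In width, BCL2L1 became 0.017 in deposited lists, BAK1 0.16 and BAD -0.30 at 2500 bp, PMAIP1 -0.14 with the covariate, and BCL2L1 0.46 and BAK1 0.39 in bp, where the median of all genes was 0.50; with 1 library left out BCL2 ran from -0.0011 to 0.34, BCL2L1 from -0.20 to 0.12, PMAIP1 from -0.44 to 0.31 and BAK1 from -0.39 to 0.16. In distal number, BCL2 and BCL2L1 became -0.53 and -0.44 with half-length lists, -0.40 and -0.16 in short-list libraries, and -0.014 and -0.11 with the covariate, and BCL2L1 -0.13 without ends of other genes; with 1 library left out BCL2 ran from -0.050 to 0.29, BCL2L1 from -0.11 to 0.088 and BID from -0.19 to 0.25.

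With the replicate number as a block, PMAIP1 became -0.091 in width and BID -0.19 in distal number. Libraries of the same number did not deviate together (correlations of -0.12, 0.02 and -0.01 for 6, 7 and 8), and treated 6 correlated best with vehicle 8 (0.26). Each same-number pair joined a long-list and a short-list library, whereas treated 6 and vehicle 8 both had long lists. The correlations thus cannot decide whether a batch was shared. As the labels state no pairing, the samples were taken to share a number only.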
